A study of Homo sapiens with 4 samples.

Results

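The genes described here are 34 transcriptional targets of p53 that act in cell cycle arrest, DNA repair, metabolism, cell survival and feedback on p53 itself. They were taken by name from a list of p53 targets that leaves out CDKN1A, the death receptors and the BCL2 family. All 34 were found among the 26364 genes of the count tables, and all 34 had enough reads to be tested. Messenger RNA was sequenced in NTERA2, a human embryonal carcinoma line (clone CRL-1973), in 2 groups of 2 libraries. The control group carries the genotype label BEND3 LacZ (replicates 1 and 3) and the other group BEND3 sh60 (replicates 1 and 2). Neither name is explained in the labels. LacZ is taken to be a control construct, and sh60 to be a hairpin RNA that targets BEND3, which encodes a BEN-domain repressor of transcription. No further treatment, time of harvest or delivery method is given in the sources used here, and both groups share the same line, medium and library kit. The labels do not say whether replicates were separate cultures, so each p-value reflects the spread among these 4 libraries alone, and that spread may be technical.

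p53 is a transcription factor that is kept low by the ubiquitin ligase MDM2 and is stabilised after DNA damage and other stress. It binds pairs of a short palindromic decamer near its targets and raises their transcription. The targets in turn slow the cell cycle, repair DNA, adjust metabolism, favour death or survival, and restrain p53 again through MDM2, PPM1D and other feedback genes.

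The decamer that p53 binds was looked for in the promoter windows that RefSeq gives for these genes (GRCh38.p14, 250 bases before each start and 50 from it), since the genes were chosen as direct targets. The decamer is its own reverse complement, so a match is found on both strands. A paired site was counted where 2 decamers lay 0 to 13 bases apart, each with the central C and G in place and with at most 2 mismatches to the consensus in all, so a perfect decamer can also be part of a paired site. Of the 34 genes, 27 had 38 windows. RRM2B, TP53INP1, PHLDA3, GADD45A, FBXO22, ASCC3 and CMBL had none. A paired site was present in 5 of the 38 windows (13.2%), in 4 of the 27 genes, against 2.93% of 34796 distinct windows of the same length. A perfect decamer was present in 6 windows (15.8%), in 6 genes, against 6.65% of all windows. The windows of these genes were not reduced to distinct ones, and the site of MDM2 counts in 2 of them. Since the list was made of direct p53 targets, more matches than in all windows can follow from that choice and carry no information on sh60. Of the genes called higher in sh60, 3 of 21 with a window held a paired site (14.3%), against 4 of all 27 (14.8%). The matched stretches are shown because they are the letters that p53 is known to read, with the decamers in capitals and all sequences 5′ to 3′ on the strand of the gene. MDM2 (chr12:68808903-68808962, plus strand) held the same paired site in the windows of 2 of its starts, 94 to 75 bases before one start and 101 to 82 bases before the other. That of AEN (chr15:88621286-88621339, plus strand) lay 34 to 15 bases before the start and that of FDXR (chr17:74872995-74873045, minus strand) 31 to 2 bases before it. DDB2 (chr11:47214979-47214999, plus strand) held a paired site without a mismatch 5 to 25 bases after one of its starts. Single perfect decamers were found 132 to 123 bases before the start in PLK2 (chr5:58460189-58460238, minus strand), 59 to 50 bases before it in RPS27L (chr15:63157507-63157556, minus strand) and 49 to 40 bases before a start of SESN1 (chr6:109009008-109009057, minus strand).
MDM2: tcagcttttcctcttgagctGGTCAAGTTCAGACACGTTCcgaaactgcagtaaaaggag
AEN: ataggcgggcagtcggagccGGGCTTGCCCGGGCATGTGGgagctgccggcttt
FDXR: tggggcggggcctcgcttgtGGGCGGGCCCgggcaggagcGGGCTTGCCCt
DDB2: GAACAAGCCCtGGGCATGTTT
PLK2: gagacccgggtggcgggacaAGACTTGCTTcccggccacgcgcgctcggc
RPS27L: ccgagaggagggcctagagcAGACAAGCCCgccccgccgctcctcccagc
SESN1: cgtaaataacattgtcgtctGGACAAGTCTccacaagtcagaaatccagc
A match is a description of the letters and not a shown binding site, and the other windows only lack these letters over this stretch.

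Levels are given as CPM, the counts of a gene scaled to a fixed library total after TMM normalisation, and 1 count was worth 0.0221 to 0.0333 CPM in libraries of 30338285 to 44788461 counts. In this order of libraries (LacZ replicates 1 and 3, then sh60 replicates 1 and 2), used throughout, BEND3 stood at 68.8, 79.3, 55.7 and 52.0 CPM (log2 fold change -0.46, SE 0.098, edgeR adjusted p = 0.00168). Without LacZ replicate 3 that difference did not pass (log2 fold change -0.36, edgeR adjusted p = 0.153). The 10 pluripotent cell markers, among them POU5F1, LIN28A and DNMT3B, summed to between 4415 and 4985 CPM in every library, with 4 lower in sh60 (DNMT3B, NANOG, SALL4 and TDGF1, 40%, against 13% of all tested genes) and 1 higher (SOX2, 10%, against 15.8%). The labels also call the line a lung carcinoma, but of 8 lung epithelium markers SFTPB and SCGB1A1 had 0 counts in all libraries, 5 with these included had under 10 counts in each, and the list summed to 3.76 to 6.32 CPM. Of 9 tested fibroblast markers 4 were higher in sh60 (COL1A1, COL1A2, LUM and POSTN, 44.4%, against 15.8% of all tested genes) and 2 lower (THY1 and PDGFRA, 22.2%, against 13%). None of the 10 listed was at 0, and their sum was 447.1 to 544.2 CPM in LacZ and 929.3 to 1093 CPM in sh60. COL1A1 carried that rise of the sum, at 84.9 to 141.4 CPM in LacZ and 553.7 to 684.04 CPM in sh60. The other 9 summed to 362.2 to 402.8 CPM in LacZ and 375.6 to 409.4 CPM in sh60, which overlap. That sum holds opposite changes. From the LacZ mean to the sh60 mean, COL1A2 rose from 16.6 to 73.4 CPM and LUM from 8.91 to 27.7 CPM, while THY1 fell from 231.3 to 182.2 CPM. Of 8 blood cell markers PTPRC and HBB had 0 counts in all libraries, 6 with these included had under 10 counts in each, and the list summed to 1.99 to 2.78 CPM. The part of these markers in the results below was not tested.

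Of the 34 p53 targets, 28 were higher in sh60, 0 were lower and 6 did not pass the test (edgeR's quasi-likelihood test, adjusted p threshold 0.05 over all genes). That is 82.4% higher, against 15.8% of all 16040 tested genes called higher and 13% called lower. The 34 genes were chosen with earlier results of these data known, so this contrast is a description and no test of the set was run. The median log2 fold change of the 34 genes was 0.64, a 1.56-fold difference, against a median of -0.0042 over all tested genes. At an unadjusted p under 0.05 by edgeR, 29 were higher and 0 lower, and the share of all tested genes at that limit was not computed. Both sh60 libraries lay above both LacZ libraries for 30 of the 34 genes, against 32.1% of all tested genes, and for none did both lie below (32.3% of all tested genes). At 2-fold or more, 6 genes were higher (3.58% of all tested genes were). Of the others called higher, 11 lay between 1.5-fold and 2-fold and 11 under 1.5-fold. With bulk RNA, more cells that express a gene and more of its RNA per cell cannot be told apart.

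The count of 28 fell to 18 without LacZ replicate 3 and to 23 without LacZ replicate 1, and it was 27 to 29 with the other settings. In edgeR it was 28 with DESeq2 size factors (15.6% of all tested genes) and with upper-quartile scaling (15.1%), and 29 with library totals only (17.6%). DESeq2 itself called 27 (12.8%) and limma-voom 27 (15.7%). It was 28 without a count filter (13%) or with a minimum of 1 CPM in 2 libraries (17.5%), and 29 with GC and length trends removed (19.7%). None of these called any of the 34 genes lower.

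**Figure D1:**
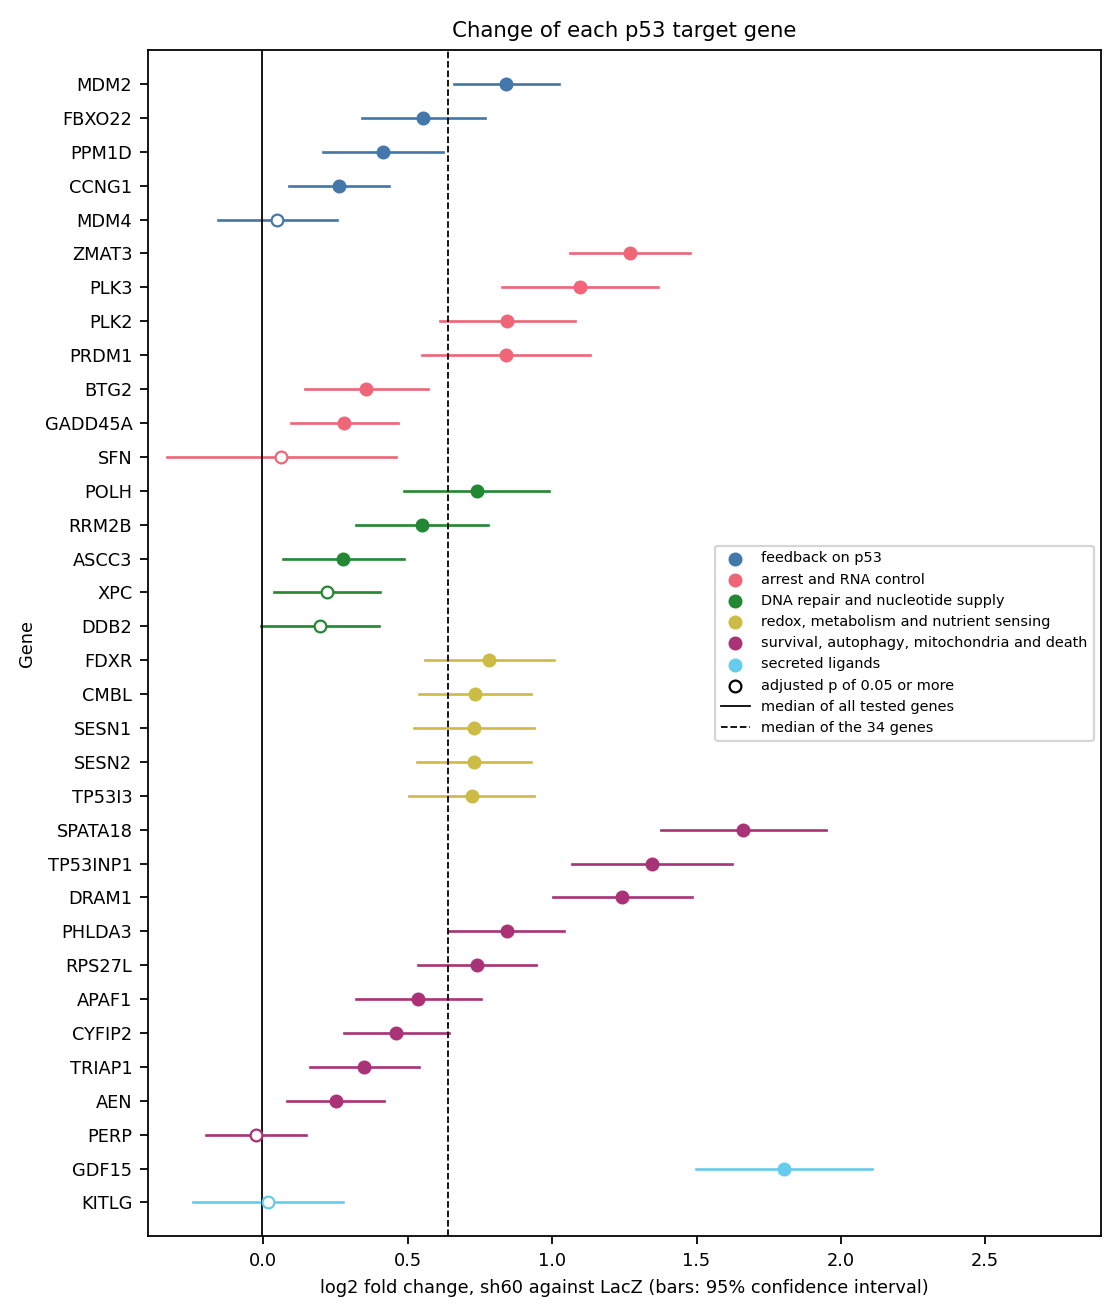
Log2 fold change of each of the 34 p53 targets in sh60 against LacZ (x axis) with its 95% confidence interval, grouped and coloured by role; open circles did not pass an adjusted p of 0.05 by edgeR. The solid line is the median of all tested genes (-0.0042) and the dashed line that of the 34 genes (0.64); GDF15 (1.80) and SPATA18 (1.66) lie farthest to the right, and PERP, KITLG, MDM4 and SFN sit at the solid line.

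Among the genes that feed back on p53, 4 of 5 rose. MDM2 (chromosome 12, 69201952 to 69239324, hg19), the ligase that marks p53 for degradation, had 9124 and 5966 counts in the LacZ pair and 13466 and 15792 in the sh60 pair. Scaled, these were 216.6, 198.5, 395.4 and 348.9 CPM. Both sh60 libraries were well above both LacZ libraries, and MDM2 was 1.79-fold higher (95% confidence interval 1.58 to 2.03, log2 fold change 0.84, SE 0.087, edgeR adjusted p = 1.13e-06). FBXO22, an F-box protein of a ligase complex that acts on methylated p53, measured 43.3 and 41.6 CPM in LacZ and 67.4 and 57.5 CPM in sh60, a 1.47-fold rise (edgeR adjusted p = 0.000450). PPM1D, the phosphatase WIP1 that reverses phosphorylation in the damage response, rose 1.33-fold, and CCNG1, cyclin G1, which brings a phosphatase to MDM2, rose 1.1997-fold. The calls of both were less firm: with LacZ replicate 3 left out, PPM1D had an edgeR adjusted p of 0.165, and CCNG1 did not pass without LacZ replicate 3 (0.237) or without LacZ replicate 1 (0.291).

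MDM4, the relative of MDM2 that binds p53 without degrading it, was the feedback gene that did not pass. It measured 48.5 and 55.2 CPM in LacZ and 53.9 and 53.2 CPM in sh60, so that both sh60 libraries lay between the LacZ libraries. Its log2 fold change was 0.047 (95% confidence interval -0.16 to 0.25, edgeR adjusted p = 0.763). Per kilobase of exon, MDM2 mRNA was 5.95 and 4.79 times as abundant as MDM4 mRNA in LacZ replicates 1 and 3, and 9.78 and 8.74 times in the sh60 libraries. The ratio was thus higher in both sh60 libraries than in either LacZ library.

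Of 7 genes of arrest and RNA control, 6 rose. ZMAT3 (chromosome 3, 178735011 to 178789656), an RNA-binding regulator of splicing, measured 47.99 and 41.6 CPM in LacZ and 112.9 and 103.4 CPM in sh60. PLK3 (chromosome 1, 45266036 to 45271667), a polo-like kinase of the stress response, measured 20.1 and 14.6 CPM in LacZ and 35.9 and 38.8 CPM in sh60. The groups did not overlap in either gene. The rises were 2.41-fold for ZMAT3 (95% confidence interval 2.09 to 2.78, edgeR adjusted p = 6.03e-08) and 2.14-fold for PLK3 (1.77 to 2.58, edgeR adjusted p = 5.13e-06). PLK3 also had the widest gap of the 34 genes between the control libraries, 0.46 on the log2 scale, so that its log2 fold change ran from 0.89 without LacZ replicate 3 to 1.36 without LacZ replicate 1.

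PLK2, a second polo-like kinase, measured 54.4 and 41.4 CPM in LacZ and 86.5 and 85.9 CPM in sh60, a 1.80-fold rise (edgeR adjusted p = 1.74e-05). Per kilobase, PLK2 was 2.25 and 2.35 times as abundant as PLK3 in LacZ and 2.004 and 1.84 times in sh60. PRDM1, which encodes the transcriptional repressor BLIMP1, measured 7.36 and 6.19 CPM in LacZ and 12.2 CPM in each sh60 library, a 1.79-fold rise (edgeR adjusted p = 0.000172). BTG2, which slows proliferation and promotes shortening of mRNA tails, rose 1.28-fold, and GADD45A, a growth arrest gene of the damage response, rose 1.21-fold. Without LacZ replicate 3 neither passed (edgeR adjusted p = 0.475 for BTG2 and 0.457 for GADD45A), and GADD45A did not pass without LacZ replicate 1 either (0.138).

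SFN, the 14-3-3 sigma protein that holds cells in G2, was the gene of this group that did not pass. It was low in every library, with 161 and 135 counts in the LacZ pair and 122 and 225 in the sh60 pair, which were 3.82, 4.49, 3.58 and 4.97 CPM. The sh60 libraries were the lowest and the highest of the 4, and the interval of the log2 fold change was wide (0.062, 95% confidence interval -0.34 to 0.46, edgeR adjusted p = 0.846).

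**Figure D2:**
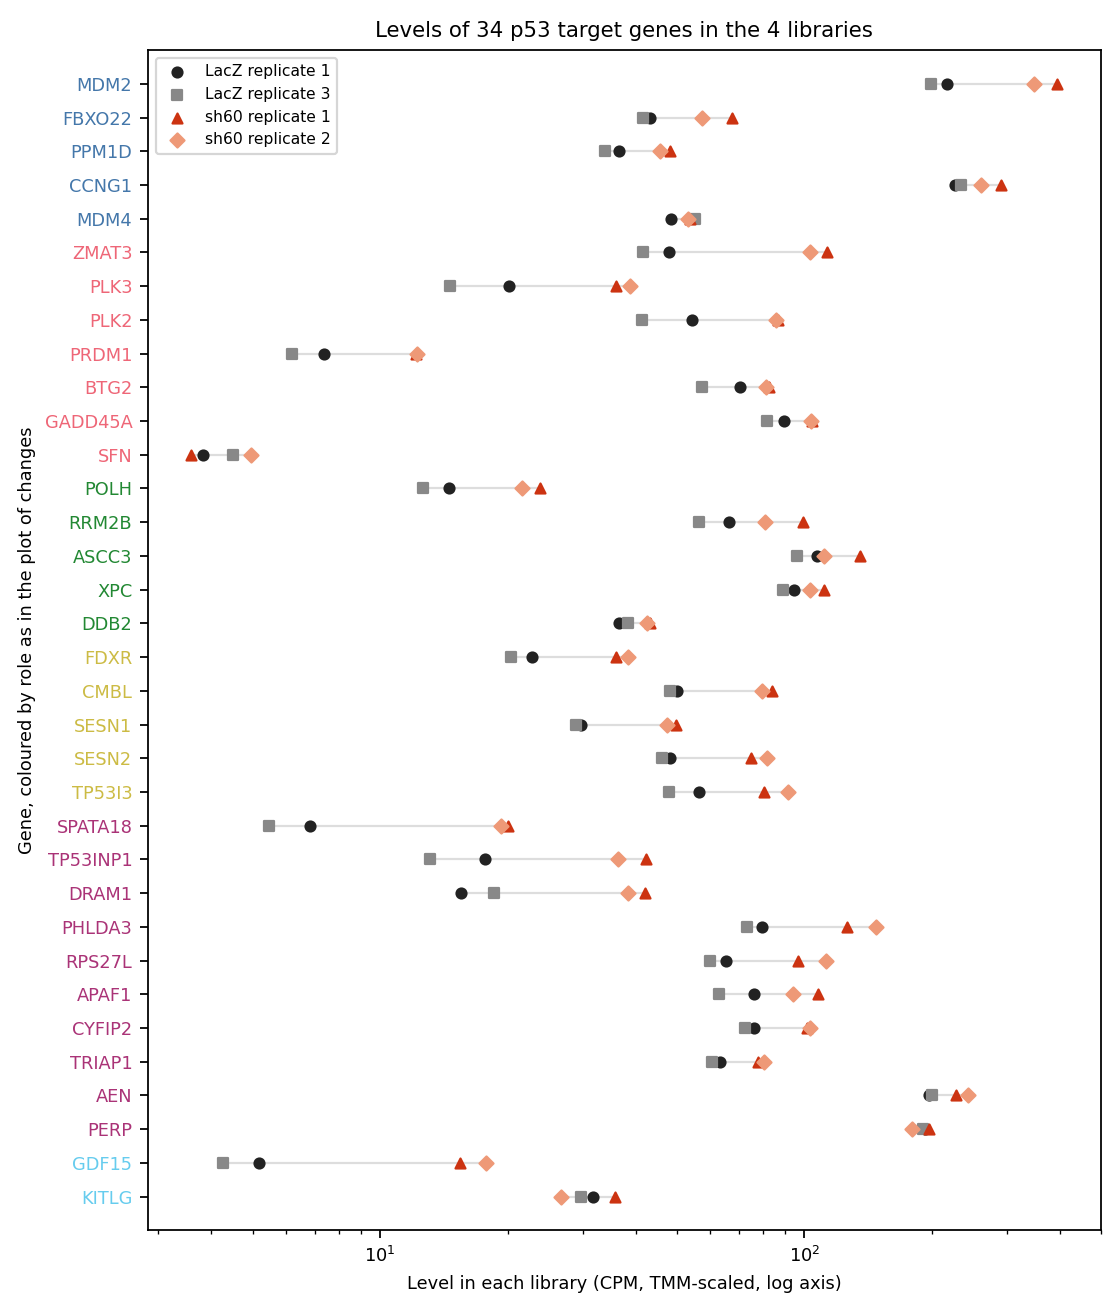
Level of each of the 34 p53 targets in the 4 libraries (x axis, CPM on a log scale), with 1 point per library. The sh60 points lie to the right of both LacZ points for 30 genes; they overlap for MDM4, SFN, PERP and KITLG.

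Of 5 genes of DNA repair and nucleotide supply, 3 rose, and their median log2 fold change of 0.28 was the smallest of the 6 roles. POLH, the polymerase that copies past ultraviolet lesions, measured 14.5 and 12.6 CPM in LacZ and 23.8 and 21.7 CPM in sh60, a 1.67-fold rise (edgeR adjusted p = 0.000142). RRM2B, the p53-inducible subunit of ribonucleotide reductase, measured 66.5 and 56.3 CPM in LacZ and 99.3 and 80.95 CPM in sh60, a 1.46-fold rise (edgeR adjusted p = 0.000906). Both sh60 libraries were above both LacZ libraries in each gene, although RRM2B missed the threshold when LacZ replicate 3 was left out (edgeR adjusted p = 0.0624). ASCC3, a helicase that unwinds DNA for repair of alkylation damage, rose 1.21-fold, by less than the gap between the sh60 libraries (135.4 and 111.3 CPM). Its edgeR adjusted p of 0.0437 was above the threshold in 6 of 12 alternatives, among them DESeq2 (0.0591).

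The damage sensors of nucleotide excision repair did not pass. XPC, which recognises distorted DNA, measured 94.4 and 89.2 CPM in LacZ and 111.1 and 102.96 CPM in sh60 (1.17-fold, 95% confidence interval 1.03 to 1.32, edgeR adjusted p = 0.0691). DDB2, which recognises ultraviolet damage in chromatin, measured 36.6 and 38.4 CPM in LacZ and 43.2 and 42.6 CPM in sh60 (1.15-fold, 95% confidence interval 0.995 to 1.32, edgeR adjusted p = 0.144). In both genes the sh60 libraries were still the higher pair. XPC passed with library totals only (edgeR adjusted p = 0.0405), with GC and length trends removed (limma adjusted p = 0.0140) and without sh60 replicate 2 (edgeR adjusted p = 0.00453), and DDB2 with GC and length trends removed (limma adjusted p = 0.0216). DDB2 is also the gene whose promoter window held the paired p53 decamers without a mismatch, shown above.

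All 5 genes of redox, metabolism and nutrient sensing rose, within a narrow band of log2 fold changes from 0.72 to 0.78. SESN2, a leucine sensor that restrains mTORC1, measured 48.3 and 46.1 CPM in LacZ and 74.8 and 81.7 CPM in sh60 (1.66-fold, edgeR adjusted p = 1.41e-05). CMBL, a hydrolase of the cytosol, measured 50.1 and 48.2 CPM in LacZ and 83.8 and 79.6 CPM in sh60 (1.66-fold, edgeR adjusted p = 9.91e-06). In both genes the LacZ libraries lay close together and far below the sh60 libraries. SESN1, the relative of SESN2, rose 1.66-fold, FDXR, the mitochondrial reductase of ferredoxin, 1.72-fold and TP53I3, a quinone oxidoreductase, 1.65-fold. The ratio of SESN1 to SESN2 per kilobase was 0.598 and 0.609 in LacZ and 0.648 and 0.564 in sh60, which overlap, so the paralogs kept about the same proportion. All 5 calls held in all 12 alternatives.

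Of 10 genes of survival, autophagy, mitochondria and death, 9 rose. SPATA18 (chromosome 4, 52917497 to 52963471), which acts in mitochondrial quality control, had 288 and 164 counts in the LacZ pair and 682 and 870 in the sh60 pair. Scaled, these were 6.84, 5.46, 20.03 and 19.2 CPM, a 3.17-fold rise (95% confidence interval 2.596 to 3.86, edgeR adjusted p = 1.07e-07). The LacZ libraries were low and the sh60 libraries nearly equal. TP53INP1, a nuclear and autophagy protein that aids phosphorylation of p53, measured 17.7 and 13.1 CPM in LacZ and 42.4 and 36.4 CPM in sh60 (2.54-fold, 95% confidence interval 2.10 to 3.08, edgeR adjusted p = 6.67e-07). DRAM1 (chromosome 12, 102271105 to 102317401), a lysosomal membrane protein that promotes autophagy, measured 15.5 and 18.6 CPM in LacZ and 42.1 and 38.4 CPM in sh60 (2.37-fold, 95% confidence interval 2.004 to 2.80, edgeR adjusted p = 3.12e-07). DRAM1 was the one gene past 2-fold that was lower in LacZ replicate 1 than in LacZ replicate 3.

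PHLDA3, which competes with AKT for membrane lipids, measured 79.3 and 73.2 CPM in LacZ and 126.2 and 147.3 CPM in sh60 (1.79-fold, edgeR adjusted p = 3.07e-06). RPS27L, a ribosomal protein relative, measured 65.5 and 59.8 CPM in LacZ and 96.9 and 112.2 CPM in sh60 (1.67-fold, edgeR adjusted p = 1.64e-05). Both stood apart between the groups and were among the genes that were higher in sh60 replicate 2 than in replicate 1. The smaller rises were 1.45-fold for APAF1, the scaffold of the apoptosome, 1.38-fold for CYFIP2, a subunit of the WAVE actin regulator, 1.27-fold for TRIAP1, a small mitochondrial protein that favours survival, and 1.19-fold for AEN, an exonuclease of dying cells. Those 4 genes missed the threshold when LacZ replicate 3 was left out (edgeR adjusted p = 0.0854, 0.0669, 0.226 and 0.301 in that order), and TRIAP1 and AEN also did when LacZ replicate 1 was left out (0.105 and 0.307). PERP, a membrane protein of cell contacts, was the gene of this group that did not pass, at 192.1 and 190.7 CPM in LacZ and 196.6 and 179.3 CPM in sh60. Its sh60 libraries lay on both sides of the LacZ pair, and its log2 fold change was -0.027 (95% confidence interval -0.20 to 0.15, edgeR adjusted p = 0.847).

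The 2 secreted ligands differed from each other. GDF15 (chromosome 19, 18496968 to 18499986), a stress cytokine of the TGF-beta family, had 218 and 128 counts in the LacZ pair and 525 and 802 in the sh60 pair. Scaled, these were 5.18, 4.26, 15.4 and 17.7 CPM, the largest rise of the 34 genes at 3.49-fold (95% confidence interval 2.83 to 4.31, edgeR adjusted p = 9.14e-08). KITLG, the ligand of the KIT receptor, measured 31.8 and 29.7 CPM in LacZ and 35.8 and 26.6 CPM in sh60 (log2 fold change 0.016, 95% confidence interval -0.24 to 0.28, edgeR adjusted p = 0.940). The sh60 libraries were the highest and the lowest for KITLG. Per kilobase, GDF15 mRNA was 0.738 and 0.649 times as abundant as KITLG mRNA in LacZ and 1.95 and 3.02 times in sh60, so that their order turned.

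The genes also differed widely in level. Per kilobase of exon in LacZ, CCNG1 was the most abundant at 93.4 CPM, followed by AEN at 63.7, GADD45A at 62.0, RPS27L at 57.8 and TRIAP1 at 52.4 CPM. In sh60 the order began with CCNG1 at 112.0 and RPS27L at 96.5 CPM, followed by AEN at 75.7 and GADD45A at 75.4 CPM. The values of AEN and GADD45A are too close to order. The least abundant in LacZ were PRDM1 at 1.25, SPATA18 at 1.38 and POLH at 1.61 CPM per kilobase. Genes with low levels in LacZ tended to have the larger changes, where the level is the mean log2 CPM in LacZ, not scaled by exon length. Across the 34 genes the log2 fold change and this LacZ level had a Pearson r of -0.53 and a Spearman rho of -0.45. Across all tested genes these were -0.13 and -0.12. The points share their libraries, and the LacZ level enters both measures, so this is a description only. With exon length the log2 fold change had an r of -0.025 across the 34 genes. No gene of the 34 shares exon bases with another annotated gene on the same strand.

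The LacZ libraries were not equal for these genes. LacZ replicate 1 lay above LacZ replicate 3, on the side of sh60, for 28 of the 34 genes, against 49.3% of all tested genes. The median gap was 0.12 on the log2 scale, against a median of -0.0018 over all tested genes and a median change in sh60 of 0.64. For 26 of the 34 (76.5%, against 21% of all tested genes) LacZ replicate 3 was the lowest library, LacZ replicate 1 the next and both sh60 libraries the highest. Of the 28 genes called higher, 25 were above in LacZ replicate 1 (89.3%), as were 75.5% of all 2540 genes called higher. The gap between sh60 replicates 2 and 1 had a median of -0.041, with replicate 2 higher in 12 of the 34 genes (51% of all tested genes). The change between groups was not larger than both replicate gaps in PERP, SFN, ASCC3, KITLG and MDM4, and it was in the others. The share of all tested genes in which it is larger was not computed.

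**Figure D3:**
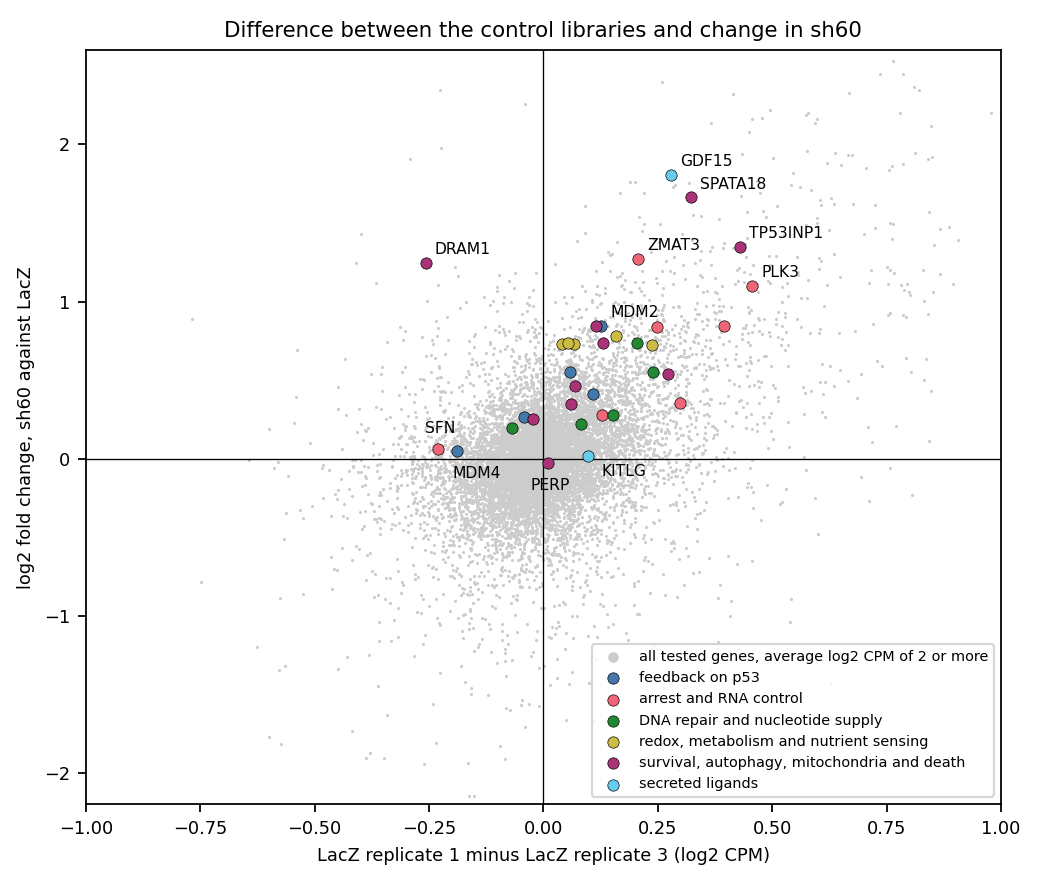
Difference between the control libraries (x axis, LacZ replicate 1 minus replicate 3, log2 CPM) against the log2 fold change of sh60 against LacZ (y axis). Grey points are 11730 tested genes with an average log2 CPM of 2 or more, 17 more lie outside the axes, and coloured points are the 34 p53 targets by role; most coloured points are in the upper right, DRAM1 is in the upper left, and the axes share the LacZ libraries.

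The number of genes called higher fell when either LacZ library was left out, as did the share of all tested genes called higher. Without LacZ replicate 3, 18 of the 34 genes were called higher (8.04% of all tested genes), and without LacZ replicate 1 it was 23 (11.1%). Without sh60 replicate 1 it was 27 (16.9%) and without sh60 replicate 2 it was 29 (16.8%). The genes that passed in all 12 alternatives were MDM2, FBXO22, ZMAT3, PLK2, PLK3, PRDM1, POLH, SESN1, SESN2, FDXR, TP53I3, CMBL, SPATA18, TP53INP1, DRAM1, PHLDA3, RPS27L and GDF15. They are also the genes with the largest log2 fold changes of the 34. The share of all tested genes that pass in all 12 was not computed. The genes whose calls were lost without LacZ replicate 3 had log2 fold changes of 0.55 or less with all libraries. Their log2 fold changes stayed above 0 without it. That was set in advance, since both sh60 libraries lay above both LacZ libraries in each of these genes. The median of the 34 genes was 0.57 without LacZ replicate 3 and 0.72 without LacZ replicate 1.

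**Figure D4:**
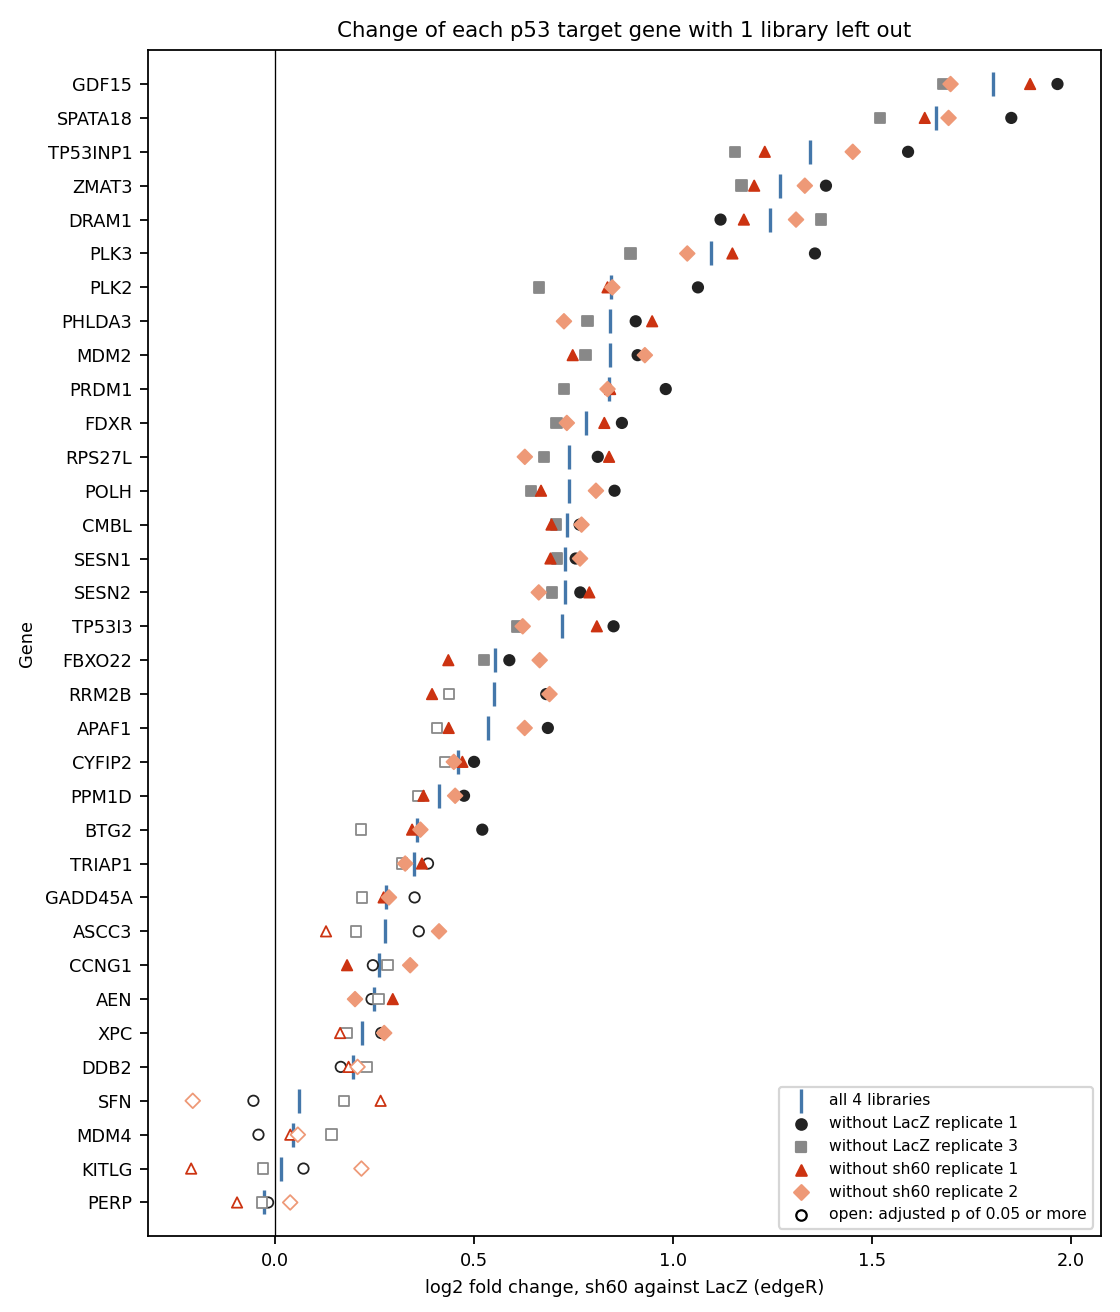
Log2 fold change of each of the 34 p53 targets (x axis) with all 4 libraries (bars) and with 1 library left out (symbols), ordered by the value with all libraries; open symbols did not pass an adjusted p of 0.05 by edgeR. The genes from FBXO22 upwards have filled symbols throughout. The grey open squares below mark genes that did not pass without LacZ replicate 3, among them those that did not pass with all libraries either.

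A list of 50 other p53 targets, which holds none of the 34 genes, moved in the same direction. This list and that of the regulators below were also chosen with earlier results of these data known. Their counts are therefore a description and no independent test. Of 50 tested, 33 were higher (66%, against 15.8% of all tested genes) and 1 was lower (2%, against 13%), with a median log2 fold change of 0.48. TRIM22, an antiviral ubiquitin ligase, measured 33.5 and 26.9 CPM in LacZ and 105.4 and 99.0 CPM in sh60. FUCA1, a lysosomal fucosidase, measured 14.9 and 10.7 CPM in LacZ and 40.1 and 36.9 CPM in sh60. RRAD, a small GTPase, measured 2.52 and 0.965 CPM in LacZ and 10.4 and 12.3 CPM in sh60. These rose 3.37-fold, 2.98-fold and 6.23-fold, and the LacZ libraries of RRAD differed more from each other than those of any of the 34 genes. The log2 fold change of RRAD was 2.64 with all libraries, 3.56 without LacZ replicate 1 and 2.18 without LacZ replicate 3. TGFA, an EGF receptor ligand, was the member that fell, from 18.2 and 19.0 CPM in LacZ to 10.2 and 11.7 CPM in sh60 (log2 fold change -0.76, edgeR adjusted p = 0.000138).

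Of 30 regulators of p53, 29 were tested and TP63 had too few counts. Of the 29, 0 were higher and 10 were lower (34.5%, against 13% of all tested genes), with a median log2 fold change of -0.16. The 0 is by edgeR with TMM scaling, and DESeq2 and limma-voom also called 0. At an unadjusted p under 0.05 by edgeR, 2 were higher and 14 lower. The share of all tested genes at that unadjusted limit was not computed. With library totals only, 2 were called higher (17.6% of all tested genes were). The kinase genes ATM and ATR, which signal DNA breaks and stalled replication, did not pass (log2 fold changes 0.0086 and -0.13, edgeR adjusted p = 0.963 and 0.365). CHEK2, an effector kinase of ATM, fell from 28.9 and 31.9 CPM to 20.4 and 19.5 CPM (log2 fold change -0.61, edgeR adjusted p = 0.000337). CHEK1, an effector kinase of ATR, fell from 140.5 and 142.1 CPM to 122.3 and 112.5 CPM (log2 fold change -0.27, edgeR adjusted p = 0.0236). The call of CHEK1 did not pass without LacZ replicate 1 or without LacZ replicate 3, although both sh60 libraries lay below both LacZ libraries. COP1, a ubiquitin ligase for p53 that is listed under its older symbol RFWD2, fell from 102.95 and 107.4 CPM to 77.2 and 71.2 CPM (log2 fold change -0.50, edgeR adjusted p = 0.000333). Without LacZ replicate 3 the number of regulators called lower was 2 and without LacZ replicate 1 it was 3, against 5.77% and 7.2% of all tested genes. It was 16 without sh60 replicate 1 (16.3%), 13 without sh60 replicate 2 (15.5%), 12 with upper-quartile scaling (16.1%) and 17 with GC and length trends removed (19.2%).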

How the data were processed

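The deposited values are counts, whole numbers of reads per gene that were not normalized, 1 table per library. Per the submitters' processing notes, the tools were STAR 2.7.6a and Subread 2.0.0 and the build was hg19. Per the file headers, featureCounts summed reads over exons per gene symbol with strand setting 2. Groups and replicate numbers came from the titles. Counts were tested with edgeR 4.0.16 in R 4.3.3 (quasi-likelihood test, TMM, filterByExpr, group as the only term, all 4 libraries), which kept 16040 of 20937 genes with a count. P-values were adjusted over all tested genes by the Benjamini-Hochberg method. The common biological coefficient of variation was 7.33%. The scripts were tested on simulated data. The replicates of each group were not duplicates, as their counts gave a chi-square of 6.19 (LacZ) and 16.8 (sh60) for each degree of freedom. All 34 genes are named. Library values are given as CPM for those past 2-fold, those that did not pass and up to 2 more per role with the smallest p. From the other targets up to 4 per direction with the smallest p were named, and from the regulators ATM, ATR, CHEK1 and CHEK2 with up to 2 more per direction. The 34 genes and the lists were chosen with earlier results of these data known. Alternatives were other scalings in edgeR, DESeq2 1.42.0, limma-voom (limma 3.58.1), other count filters, removal of GC and length trends (GC from GENCODE transcripts for 94.2% of tested genes) and leaving out each library. Expression coordinates are hg19 as the files give them, and promoter windows are GRCh38.p14, searched by sequence and symbol only. Some genes that these rules would name are not reported here.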

Additional observations from a re-analysis of the deposited data

How the results depend on the processing

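The number of the 34 genes called higher was 27 to 29 under the 8 alternatives of scaling, test, filter and trend removal, and 0 were called lower in any of the 12. With 1 library left out the number called higher ran from 18 to 29 and the median log2 fold change from 0.57 to 0.72; with GC and length trends removed the median was 0.59. Fits that leave 1 library in a group assume that it varies like the other group, and the cause of the lost calls was not tested. Of the 50 other targets 22 to 35 were higher and 1 to 3 lower with 1 library left out. Of the regulators, 0 to 2 were higher and 2 to 16 lower with 1 library left out. The share of all tested genes called also changed with 1 library left out, as given above. Regulators called higher numbered 2 with library totals only (17.6% of all tested genes) and 1 with the filter of 1 CPM in 2 libraries (17.5%). With GC and length trends removed, 2 were higher (19.7%) and 17 lower (19.2%). Signs turned only in genes that did not pass. In each of the 28 targets called higher, both sh60 libraries lay above both LacZ libraries. Leaving out 1 library could therefore hardly turn their sign, so that part is no test of the direction. With 1 library left out, log2 fold changes ran from -0.094 to 0.039 for PERP, from -0.21 to 0.27 for SFN, from -0.21 to 0.22 for KITLG, from -0.041 to 0.14 for MDM4 and from -0.17 to 0.17 for ATM. PERP was 4.72e-05 with library totals only. KITLG and ATM were -0.014 and -0.021 with upper-quartile scaling and -0.0071 and -0.0072 by limma-voom. With GC and length trends removed, KITLG was -0.0497, MDM4 -0.045 and ATM -0.11. No paired analysis was possible because the groups share only replicate number 1. The lowest count of any of the 34 genes in a library was 122, for SFN, which also had the widest confidence interval.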

Other observations

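Some p53 targets start next to another gene on the opposite strand. A search chosen after the data were seen took genes on the other strand whose start lies within 1000 bases of a start of the 34 genes in the hg19 tables, and found 7 partners of 7 genes, 6 of them tested. Of these, 1 was higher and 1 lower, near the 15.8% and 13% of all tested genes, with a median log2 fold change of 0.0019. IKBIP, itself one of the other p53 targets, starts 249 bases from APAF1, and it measured 53.8 and 45.0 CPM in LacZ and 109.4 and 94.4 CPM in sh60. It was 2.06-fold higher (edgeR adjusted p = 9.91e-07), next to 1.45-fold for APAF1, and the difference between them was not tested.

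CEP57L1, which starts 648 bases from SESN1, was lower, at 12.1 and 11.3 CPM in LacZ and 9.66 and 8.62 CPM in sh60 (log2 fold change -0.36, edgeR adjusted p = 0.0453), next to a log2 fold change of 0.73 for SESN1. GATC, 26 bases from TRIAP1, had a log2 fold change of 0.017 (edgeR adjusted p = 0.918), against 0.35 for TRIAP1. LSM3, 56 bases from XPC, had -0.013 and XPO5, 66 bases from POLH, had -0.12, and neither passed (edgeR adjusted p = 0.931 and 0.289). LINC01136, near BTG2, had too few counts to be tested.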
